A study of Mus musculus with 8 samples.

Results

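The genes for 8 CXC chemokines and 1 CX3C chemokine were followed in activated mouse cultures labelled as microglia. They were picked by name from the chemokine family, without a threshold on their values but with earlier results of these data known: Cxcl1, Cxcl2, Cxcl3 and Cxcl5, whose proteins attract neutrophils, Cxcl12, Cxcl13 and Cxcl14, which belong to the homeostatic ligands, and Cxcl16 and Cx3cl1, whose proteins are anchored in the membrane. All 9 were found by name in the count table, which holds 31406 genes. Transcripts were counted by RNA sequencing in 8 libraries of primary striatal cultures from newborn wild-type C57/BL6 mice, kept for 15 days. Activation by lipopolysaccharide (LPS) plus interferon-γ lasted 48 h in every culture, and every culture received SCH 58261, an antagonist of the adenosine A2A receptor. The methods list the interferon-γ as human. Ligands were added at 24, 32 and 40 h of the activation. In 4 libraries SCH 58261 was the only ligand (A2A antagonist group), and in the other 4 it was given with 200 nM 2-Cl-IB-MECA, an agonist of the adenosine A3 receptor (dual group).

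The groups follow the titles of the samples and the names of the count columns. The treatment field of the labels goes the other way, in that it gives 2-Cl-IB-MECA to the libraries with SCH 58261 alone in the title and omits it where the title has both, so every direction given here rests on the titles. As both groups carry LPS, interferon-γ and SCH 58261, the comparison concerns what the A3 agonist changed on top of these, and neither the activation nor the antagonist is compared with cells that lack it. Libraries of activated cells without ligands were not analysed here. The methods give other replicate numbers than the tables hold, so the n of 4 per group is that of the titles and columns. Nothing ties the replicates to separate animals, so the p-values measure only the spread between these libraries, which may be technical.

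Chemokines are small secreted proteins that guide leukocytes along a gradient by way of G protein-coupled receptors. The CXC ligands with a glutamate-leucine-arginine (ELR) motif act on Cxcr2 and Cxcr1 and draw neutrophils into inflamed tissue. Their genes are classical targets of NF-κB downstream of LPS and interleukin-1, and their mRNAs are short-lived because of AU-rich elements in the 3′ untranslated region (3′ UTR). The homeostatic ligands are made without an inflammatory stimulus and place lymphocytes and progenitor cells, while fractalkine, the product of Cx3cl1, is known in the brain as the neuronal signal that microglia read through Cx3cr1.

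The ELR ligands lie together on chromosome 5 (mm10), where Cxcl5, Cxcl3, Cxcl1 and Cxcl2 sit in this order within chr5:90759360-90905938, a stretch of 146579 bases with 7 protein-coding genes, the others being Cxcl15, Pf4 and Ppbp. RefSeq promoter windows (GRCm38.p6, 250 bases before to 50 bases after the start) were at hand for 7 of the 9 genes, all but Cxcl5 and Cxcl16. The 150 bases before the start were compared between the 3 ELR ligands with a window, Cxcl1, Cxcl2 and Cxcl3. Their longest run of letters in common was GGGAATTTCCC, 11 bases that spell a form of the NF-κB motif. Searched on both strands, these letters were in 0 of the other 4 windows and in 14 of all 32851 windows (0.0426%), the 3 genes included. The stretches are shown with the shared run in capitals, plus strand.
Cxcl1, chr5:90891095-90891244: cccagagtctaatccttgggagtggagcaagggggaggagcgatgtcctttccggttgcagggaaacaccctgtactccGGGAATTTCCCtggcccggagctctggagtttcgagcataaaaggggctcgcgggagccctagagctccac
Cxcl2, chr5:90903749-90903898: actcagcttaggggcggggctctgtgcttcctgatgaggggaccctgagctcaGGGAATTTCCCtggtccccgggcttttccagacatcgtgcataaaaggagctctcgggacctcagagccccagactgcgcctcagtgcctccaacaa
Cxcl3, chr5:90785951-90786100: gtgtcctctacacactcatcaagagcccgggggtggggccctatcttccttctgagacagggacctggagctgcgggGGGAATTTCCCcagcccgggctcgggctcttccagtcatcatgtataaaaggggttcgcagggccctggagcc
The run begins 71 bases before the RefSeq start in Cxcl1, 97 in Cxcl2 and 73 in Cxcl3. These distances depend on the annotation. The gene starts of the count table for Cxcl1 (90891241) and Cxcl2 (90903871) lie within the stretches shown. No binding was measured, and a match is only a description of the letters.

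The 3′ UTRs of the same genes carry the heptamer TATTTAT, the AU-rich core read by the mRNA-destabilising proteins of the Zfp36 family. In the transcript with the longest coding sequence, Cxcl1 held 6 copies in 592 bases and Cxcl2 held 7 in 734 bases. As many copies or more were found in 0.395% and 0.224% of 20996 genes. Cxcl3 held 2 copies in 645 bases, a number reached by 9.32% of genes, so it is the least AU-rich of the 3. Cxcl5, Cxcl12 and Cx3cl1 held 1 copy each, and Cxcl13, Cxcl14 and Cxcl16 held 0. The 30 bases with most copies are shown for the ELR ligands that differ in this respect (GRCm38, plus strand, heptamers in capitals).
Cxcl1, chr5:90892603-90892632: agggtccTATTTATTTATgTATTTATTTAT
Cxcl2, chr5:90905324-90905353: actTATTTATTTATctatgTATTTATTTAT
Cxcl3, chr5:90787855-90787884: aactatacaagattatcagttgtTATTTAT
Cxcl1 and Cxcl2 have 4 copies in this stretch, in separate pairs whose members overlap, and Cxcl3 has 1.

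The libraries held between 32630602 and 45878639 counts, and 26155 to 26809 genes were detected in each. Within a group, the chi-square per degree of freedom between libraries was 3.80 to 9.43, so no library repeated another within sampling noise. Microglial markers summed to 584 to 657 CPM per kb (counts scaled to a library of 1000000, per kilobase of gene) with the antagonist and to 538 to 569 with both ligands. Of these 9 markers, 3 were higher and 6 were lower in the dual group, and C1qa, a complement component, was called lower in edgeR, a call that ended when A2A antagonist replicate 2, 3 or 4 was left out, or dual replicate 3. The sums differ through C1qa. Without it, the other 8 markers summed to 167 to 174 CPM per kb with the antagonist and to 165 to 173 with both ligands, which overlap. These 8 did not all move alike. Aif1 was lower in the dual group (log2 fold change -0.21, SE 0.06, adjusted p = 0.110, edgeR). Csf1r was higher (0.11, SE 0.03, adjusted p = 0.171, edgeR) with no overlap of the groups, as in 7.42% of all genes. DESeq2 and edgeR without the low-count filter each called 2 of the 9 markers, Aif1 and C1qa. Astrocyte markers summed to 998 to 1046 CPM per kb in the A2A antagonist group and to 1014 to 1081 in the dual group, and fibroblast markers to 282 to 316 and 284 to 355. The cultures therefore held abundant transcripts of other glia and of fibroblasts beside those of microglia, although the samples are labelled as microglia. The methods also report a high purity of microglia, measured by labelling with anti-CD11b antibodies. Sums of transcripts do not count cells, so they give no share of cells to set beside that purity. In such bulk RNA, fewer cells of a type and less RNA per cell cannot be told apart. Nor can the transcripts of the chemokine genes be assigned to microglia or to another cell type. Of 6 neutrophil markers only S100a8 passed the low-count filter, Retnlg did not, and the other 4 were not found by name in the count table.

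All 9 chemokine genes were expressed, over a wide range of levels. The level per length was calculated as CPM per kb of the gene length in the deposited table, over all 8 libraries. Cxcl1 was the highest with 475 ± 29.9 CPM per kb (SD, n = 8), followed by Cxcl5 with 289 ± 25.2. These 2 neutrophil attractants made up 45.3% to 51.3% and 26.7% to 33.1% of the sum over the 9 genes in a library. Cxcl2 had 56.8 ± 3.91 CPM per kb, Cxcl12 had 46.6 ± 1.65, and Cxcl16 had 37.3 ± 1.92. Down to Cxcl16 every gene lay above the next in all 8 libraries, with no overlap of ranges. Cxcl14 with 29.9 ± 1.12 CPM per kb and Cx3cl1 with 28.9 ± 2.41 overlapped, the former being higher in 5 of 8 libraries. Cxcl3 had 10.5 ± 2.72 CPM per kb and Cxcl13, the B cell attractant, had 7.61 ± 1.05, and their ranges overlapped as well, Cxcl3 being higher in 7 of 8 libraries.

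The place of Cxcl3 in this order depended on the length. The deposited length of Cxcl3 is 3498 bases and equals the union of all its exons, whereas its coding transcript measures 1016 bases. With the length of the coding transcript, a choice made after seeing the data, Cxcl3 had 36.0 CPM per kb and overlapped with Cxcl16 (41.7 CPM per kb), Cx3cl1 (34.3) and Cxcl14 (29.9). Cxcl1 (935 CPM per kb), Cxcl5 (342), Cxcl2 (106) and Cxcl12 (67.7) remained the top 4 genes in the same order, and Cxcl13 remained the lowest. The plot of levels per length shows both scales.

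**Figure D1:**
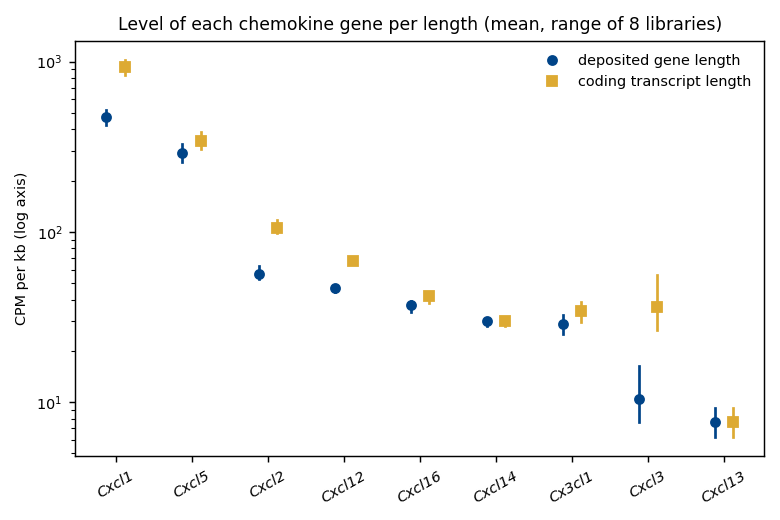
Mean level of each of the 9 chemokine genes over the 8 libraries, in CPM per kb on a log axis, with the deposited gene length (circles) and with the coding transcript length (squares), the lines spanning the lowest to the highest library. Cxcl1 (475 CPM per kb by the deposited length) and Cxcl5 (289) stand above the rest, and Cxcl3 moves from 10.5 to 36.0 when the coding transcript is used.

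The comparison of dual with A2A antagonist libraries asked whether the A3 agonist altered these chemokine genes. All 9 passed the low-count filter, and 0 of 9 were called at an adjusted p-value under 0.05 in edgeR, with p-values adjusted over the 18756 genes tested, of which 0.208% were called. Before adjustment, 5 of the 9 chemokine genes had a p-value under 0.05, beside 12.8% of all genes. Of these 5, Cxcl2 and Cxcl3 were higher, beside 5.98% of all genes, and Cxcl1, Cxcl16 and Cx3cl1 were lower, beside 6.81%. In 0 of 9 genes did the groups fail to overlap, as they did in 7.42% of all genes. Without the low-count filter edgeR called 2 of the 9 (Cxcl3 and Cx3cl1), and the DESeq2 Wald test called 1 (Cx3cl1). Over all genes these settings called 366 of 31406 and 381 of 11313, beside 39 of 18756 in the main fit. Differences are given as dual minus A2A antagonist. The log2 fold changes had a median of -0.0089 over the 9 genes, 4 of them higher and 5 lower, and of 0.0038 over all genes tested. Levels below are CPM after TMM scaling, per library in the order of the replicate numbers, with the mean, SD and 95% interval of the difference.

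**Figure D2:**
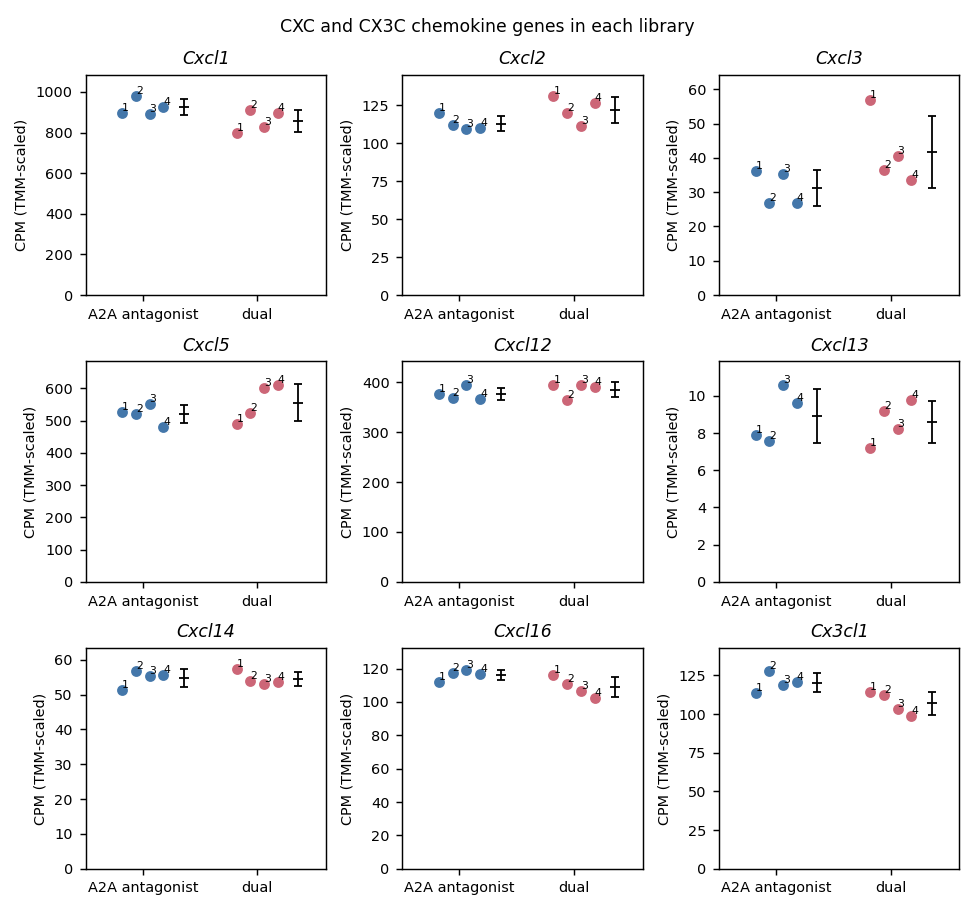
CPM (TMM-scaled, axis from 0) of each chemokine gene in the 4 A2A antagonist libraries (blue) and the 4 dual libraries (red), with the replicate number beside each point and the mean ± SD as a bar. The groups overlap in all 9 panels, and Cxcl3 in dual replicate 1 (57.0 CPM) stands above all other libraries.

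Among the neutrophil attractants, Cxcl3 showed the widest difference of the 9 genes. Cxcl3 was measured at 36.2, 26.9, 35.3 and 26.8 CPM in the A2A antagonist libraries and at 57.0, 36.5, 40.5 and 33.5 CPM in the dual libraries. Of the dual libraries, 3 lay above every A2A antagonist library, and replicate 4 lay between them. The means were 31.3 ± 5.16 and 41.9 ± 10.5 CPM (SD, n = 4 each), which is 1.33-fold on the fitted scale. The log2 fold change was 0.42 (SE 0.13, interval 0.15 to 0.68), with an adjusted p-value of 0.159 in edgeR. Much of its size came from 1 library: without dual replicate 1 the log2 fold change was 0.24, and over the settings tried the adjusted p-value of Cxcl3 ran from 0.000602 without the low-count filter to 0.401.

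Cxcl2, the closest relative of Cxcl3, was measured at 120.1, 112, 109.6 and 109.8 CPM in the A2A antagonist libraries and at 131, 119.7, 111 and 126 CPM in the dual libraries. The dual libraries 1 and 4 were the highest of all, and the other two lay among the A2A antagonist libraries. The means were 113 ± 4.97 and 122 ± 8.51 CPM (SD, n = 4 each), and the log2 fold change was 0.11 (SE 0.05, interval 0.01 to 0.21, adjusted p = 0.312, edgeR). Reads of Cxcl2 and Cxcl3 could in part be exchanged, as 7.59% of the 31-base words of Cxcl2 transcripts and 5.46% of those of Cxcl3 occur in another gene, mostly in each other.

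Cxcl1, the most abundant of the group, was on the other side of 0. It was measured at 898, 978, 891 and 928 CPM with the antagonist and at 798, 909, 828 and 896 CPM with both ligands. Dual replicates 1 and 3 were the 2 lowest libraries, whereas replicates 2 and 4 lay within the A2A antagonist range. The means were 924 ± 39.6 and 858 ± 53.2 CPM (SD, n = 4 each), from 26038 to 44490 counts, with a log2 fold change of -0.11 (SE 0.04, interval -0.19 to -0.02, adjusted p = 0.275, edgeR). The difference of Cxcl1 had the opposite sign to those of Cxcl2 and Cxcl3, and none of these genes was called in edgeR. Whether the difference of Cxcl1 departs from those of Cxcl2 and Cxcl3 was not tested.

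Cxcl5, which lies at the other end of the cluster, was measured at 526, 522, 552 and 481 CPM with the antagonist and at 489, 525, 601 and 609 CPM with both ligands. Dual replicates 3 and 4 were the highest, and replicate 1 was among the lowest. The log2 fold change of Cxcl5 was 0.10 (SE 0.06, interval -0.02 to 0.22, adjusted p = 0.510, edgeR), between 520.1 ± 29.3 and 556 ± 58.6 CPM (SD, n = 4 each). It went to 0.15 without dual replicate 1, and to 0.06, 0.05 and 0.05 without A2A antagonist replicate 4 and dual replicates 3 and 4. The dual libraries thus ordered the ELR ligands differently. Replicate 1 was the highest dual library for Cxcl2 and Cxcl3 and the lowest for Cxcl1 and Cxcl5.

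The homeostatic ligands showed the narrowest differences. Cxcl12, which holds stem cells and lymphocytes in their niches through Cxcr4, was measured at 376, 368, 394 and 367 CPM with the antagonist and at 394, 364, 394 and 389.6 CPM with both ligands. Its means were 376 ± 12.5 and 385 ± 14.5 CPM (SD, n = 4 each), and the interval of its log2 fold change (0.03, SE 0.04) ran from -0.04 to 0.11. That interval is of the main fit and measures only the spread between these libraries. Without dual replicate 2 the log2 fold change of Cxcl12 was 0.06 (SE 0.04). The interval is therefore no firm bound on the change of Cxcl12.

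Cxcl14, an orphan-type ligand with no agreed receptor, was the flattest of the 9. It was measured at 51.2, 56.9, 55.4 and 55.5 CPM with the antagonist and at 57.3, 54.0, 53.1 and 53.6 CPM with both ligands, with a log2 fold change of -0.0089 (SE 0.04, interval -0.10 to 0.08). Cxcl13, the ligand of Cxcr5, was the scarcest gene with 7.91, 7.56, 10.6 and 9.60 CPM in the A2A antagonist libraries and 7.17, 9.17, 8.24 and 9.79 CPM in the dual libraries. Its log2 fold change was -0.05 (SE 0.11) and its interval of -0.28 to 0.18 was wider than those of Cxcl12 and Cxcl14. The adjusted p-values of Cxcl12, Cxcl13 and Cxcl14 in edgeR were 0.736, 0.902 and 0.960, and the signs of Cxcl13 and Cxcl14 turned when single libraries were left out.

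Both membrane-anchored ligands were lower in the dual group without being called. Cx3cl1 was measured at 114, 128, 119 and 121 CPM with the antagonist and at 115, 112, 103 and 98.5 CPM with both ligands. The groups overlapped only through dual replicate 1, which was just above A2A antagonist replicate 1. The means were 120.4 ± 5.95 and 107 ± 7.52 CPM (SD, n = 4 each), and the log2 fold change was -0.17 (SE 0.05, interval -0.27 to -0.07), with an adjusted p-value of 0.130 in edgeR. With DESeq2 the same difference (-0.17) had an adjusted p-value of 0.0298, and without the low-count filter in edgeR it was -0.18 with an adjusted p-value of 0.0131.

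Cxcl16, the ligand of Cxcr6 and at the same time a scavenger receptor for oxidised lipoprotein, was measured at 112, 118, 119 and 117 CPM with the antagonist and at 116, 111, 106 and 103 CPM with both ligands. As for Cx3cl1, the overlap was between dual replicate 1 and A2A antagonist replicate 1. Its log2 fold change was -0.10 (SE 0.04, interval -0.18 to -0.01, adjusted p = 0.317, edgeR), between 116 ± 3.05 and 109 ± 5.81 CPM (SD, n = 4 each). Cxcl16 overlaps with Zmynd15 on the opposite strand by 552 exon bases, so its count is uncertain if strand was not used, while the other 8 genes overlap no annotated gene.

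Markers of the oligodendrocyte lineage were on the same side as both membrane-anchored ligands. The 6 markers, 1 higher and 5 lower with 0 called in edgeR (1 at an unadjusted p-value under 0.05), summed to 191 to 205 CPM per kb in the A2A antagonist libraries and to 173 to 191 in the dual libraries. Among them, Olig1, a transcription factor of oligodendrocyte precursors, was one of the 3 genes whose log2 CPM followed Cx3cl1 most closely (Pearson r 0.979, with Spryd3 at 0.983 and Bcl7c at 0.977), among 11061 genes compared over 8 libraries. Olig1 was lowest in dual replicates 3 and 4 (237 and 234 CPM), which were also the lowest libraries for Cx3cl1 and Cxcl16. Of the 6 markers, Olig1 was called with DESeq2 and without the low-count filter. Of 5 neuron markers 4 passed the filter, 2 higher and 2 lower, with 0 called in edgeR (0 at an unadjusted p-value under 0.05). The 5 summed to 7.75 to 8.76 CPM per kb in the A2A antagonist libraries and to 7.91 to 8.57 in the dual libraries. The part of the oligodendrocyte or neuron markers in the differences of Cx3cl1 and Cxcl16 was not tested.

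By the same measure of likeness, Cxcl3 was followed most closely by Clk2 (r 0.973), Arg1 (0.95) and Ccr1 (0.942). Arg1, arginase 1, a marker of alternative activation, had a log2 fold change of 0.81 (SE 0.18) with an adjusted p-value of 0.0651 in edgeR. The nearest patterns to Cxcl2 were those of Nup107 (0.996), Btg1 (0.941) and Kdm2a (0.935), and for Cxcl16 Spag7 (0.982), Dpf2 (0.981) and Prdx4 (0.974). None of these lists held another of the 9 chemokine genes. As the highest of so many correlations over 8 points, these values describe the libraries and carry no test.

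The receptors of these ligands were present at very unequal levels. Of 8 receptor genes 6 passed the filter, 4 higher and 2 lower, and 0 were called in edgeR (0 at an unadjusted p-value under 0.05) or with DESeq2. The median log2 fold change of the 6 was 0.06. Cxcr1 did not pass, with at most 1 count in a library, and Cxcr2 was not found by name in the count table. Cx3cr1, the fractalkine receptor of microglia, had the highest level per length (20.8 CPM per kb), at 92.7 ± 6.12 and 94.8 ± 9.94 CPM (SD, n = 4 each) and a log2 fold change of 0.03 (SE 0.06, adjusted p = 0.869, edgeR). The sign of Cx3cr1 turned without dual replicate 4. Ackr1, an atypical receptor that binds many inflammatory chemokines without signalling, had the widest difference at -0.58 (SE 0.30, adjusted p = 0.446, edgeR). It rested on 13 to 31 counts per library, and Ackr1 shares 361 exon bases with Cadm3. The receptors Cxcr4 and Ackr3, both of which bind Cxcl12, were at 0.09 (SE 0.09) and -0.02 (SE 0.04).

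Of 7 further CXC ligand genes 5 passed the filter, 1 higher and 4 lower (median -0.16). Before adjustment 3 of them had a p-value under 0.05, beside 12.8% of all genes. In edgeR 1 was called, beside 0.208% of all genes. This was Cxcl10, an interferon-induced attractant of T cells, which fell from 486 ± 30.7 CPM to 413 ± 21.1 CPM (SD, n = 4 each), with no overlap of the groups and a log2 fold change of -0.24 (SE 0.04, adjusted p = 0.0311, edgeR). The call was lost without A2A antagonist replicate 2, 3 or 4 and without dual replicate 1 or 3, with adjusted p-values between 0.0516 and 0.118. Cxcl10 shares 133 exon bases with Art3 on the opposite strand. Cxcl9, induced by interferon-γ as well, had the widest difference of this list at -0.39 (SE 0.10, adjusted p = 0.101, edgeR). It went from 7.09 ± 0.743 to 5.43 ± 0.586 CPM (SD, n = 4 each), again without overlap, as in 7.42% of all genes. Without the low-count filter Cxcl9 was called in edgeR (adjusted p = 0.0252). Cxcl11 was lower too, at -0.16 (SE 0.04, adjusted p = 0.116, edgeR), with overlapping groups. DESeq2 called 2 of the list, Cxcl10 and Cxcl11, as did edgeR without A2A antagonist replicate 1. Without the low-count filter edgeR called 3, namely Cxcl9, Cxcl10 and Cxcl11. Pf4, which lies inside the cluster of the ELR ligands, was on the other side at 0.14 (SE 0.07, adjusted p = 0.427, edgeR).

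**Figure D3:**
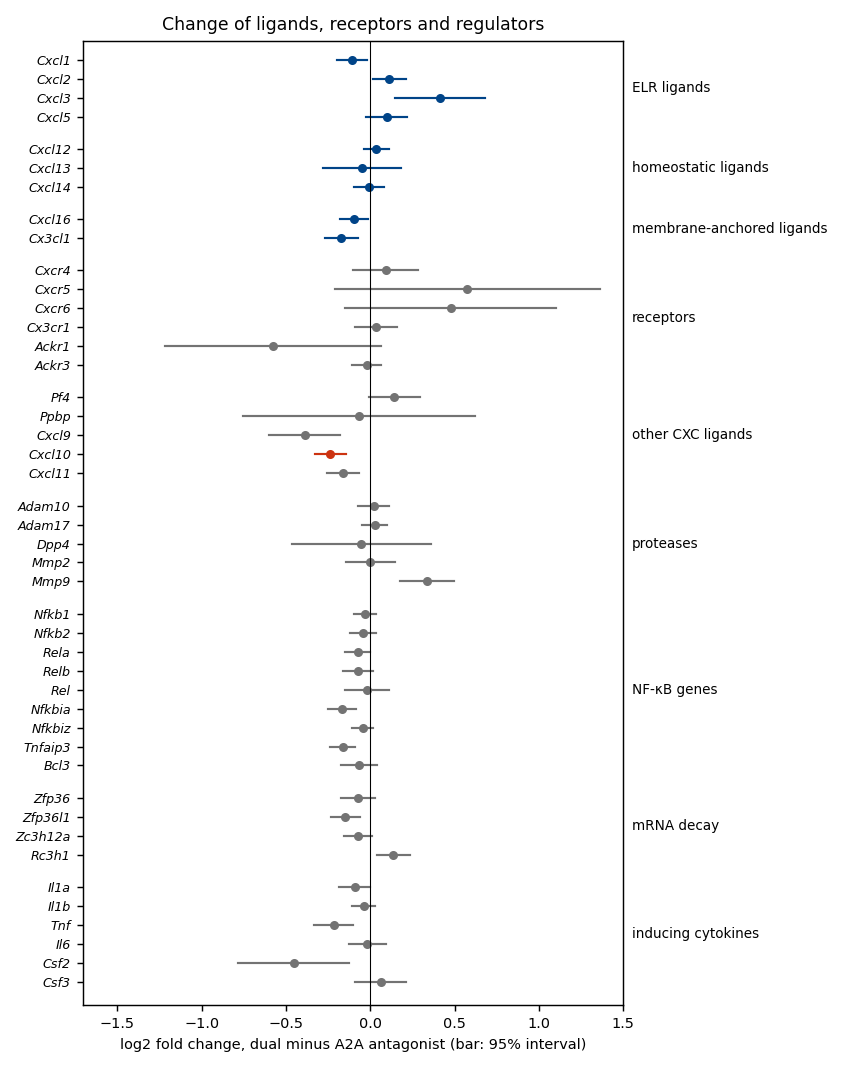
Log2 fold change (dual minus A2A antagonist, point) with its 95% interval (line) for the 9 chemokine genes (blue) and for the genes of their receptors, other CXC ligands, proteases, NF-κB, mRNA decay and inducing cytokines. Cxcl10 (red, -0.24) is the gene called at an adjusted p-value under 0.05 in edgeR. All 9 NF-κB genes lie left of 0, as do 48.5% of all genes tested.

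The genes that act on these ligands were read from 4 further lists. Over all genes tested, 48.5% were lower, 12.8% had an unadjusted p-value under 0.05 and 0.208% were called in edgeR. Of 5 proteases that shed or trim chemokines, 3 were higher and 2 lower, with a median of 0.02. In edgeR 0 were called, with 1 at an unadjusted p-value under 0.05, and 0 with DESeq2. Mmp9, which trims ELR ligands and is stored by neutrophils but also made by macrophages, was measured at 191, 164, 202 and 193 CPM with the antagonist and at 287, 220.0, 234 and 206 CPM with both ligands. All dual libraries lay above all A2A antagonist libraries, and replicate 1 was the highest, as for Cxcl3. The log2 fold change of Mmp9 was 0.34 (SE 0.08, adjusted p = 0.0651, edgeR), and it was called without the low-count filter (adjusted p = 9.7e-06) and without dual replicate 4 (adjusted p = 0.0429). Without dual replicate 1 its log2 fold change was 0.23. Adam10 and Adam17, the sheddases of Cx3cl1 and Cxcl16, were at 0.02 (SE 0.04) and 0.03 (SE 0.04).

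All 9 NF-κB genes lay below 0, beside 48.5% of all genes, at a median of -0.07. In edgeR 0 were called, with 3 at an unadjusted p-value under 0.05, beside 12.8% of all genes. DESeq2 and edgeR without the low-count filter each called 2, Nfkbia and Tnfaip3, an NF-κB inhibitor, among 381 of 11313 and 366 of 31406 genes called. The 9 NF-κB genes summed to 550.4 to 596 CPM per kb with the antagonist and to 515 to 539.8 CPM per kb with both ligands. This sum weighs most on Nfkbia, at 307 CPM per kb over all 8 libraries, with Nfkb2 next at 57.8. It was not calculated without Nfkbia. Nfkbia, the inhibitor IκBα and itself an NF-κB target, was the most abundant of the 9 and had the widest difference, from 523 ± 29.9 to 466 ± 13.6 CPM (SD, n = 4 each), a log2 fold change of -0.17 (SE 0.04, adjusted p = 0.0686, edgeR). The adjusted p-value of Nfkbia was 0.00418 with DESeq2, 0.0022 in edgeR without the filter and 0.0177 without A2A antagonist replicate 1. Cxcl1, Cxcl2 and Cxcl3, whose promoters hold the shared run, were at -0.11, 0.11 and 0.42, none of them called in edgeR. The part of the NF-κB genes in these differences was not tested.

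Of 4 mRNA decay genes 1 was higher and 3 lower, with a median of -0.07. In edgeR 0 were called, with 2 at an unadjusted p-value under 0.05. Zfp36l1, which binds AU-rich elements, had the highest level and the widest difference, from 194 ± 9.86 to 175 ± 7.32 CPM (SD, n = 4 each) and a log2 fold change of -0.15 (SE 0.04, adjusted p = 0.118, edgeR). It was called with DESeq2 (adjusted p = 0.0235) and in edgeR without the low-count filter (adjusted p = 0.0225). Gm26669 covers 1672 exon bases of Zfp36l1 on the opposite strand, which leaves its count uncertain. Of 6 cytokines that induce or accompany these chemokines 1 was higher and 5 lower, with a median of -0.07. In edgeR 0 were called, with 3 at an unadjusted p-value under 0.05, while DESeq2, edgeR without the low-count filter and edgeR without dual replicate 4 each called 1, Tnf. Il1b, a strong inducer of Cxcl1 and Cxcl2, was the most abundant at 719.9 ± 26.9 and 701 ± 14.2 CPM (SD, n = 4 each), with a log2 fold change of -0.04 (SE 0.03, adjusted p = 0.671, edgeR). Csf2, which encodes GM-CSF, had the widest difference at -0.45 (SE 0.16, adjusted p = 0.212, edgeR), on 62 to 138 counts per library. Transcripts on the opposite strand share 78 exon bases with Cx3cr1, 25 with Il1b and 96 with Csf2.

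Across all genes tested, 39 were called, 9 higher and 30 lower in the dual group. The median absolute log2 fold change was 0.0487 among tested genes with a mean log2 CPM of 3 or more, a level that all 9 chemokine genes reached. Of the 9, 7 were farther from 0 than this median, Cxcl13 only just (-0.0488). Cxcl3 at 0.42 lay farthest from 0 and Cxcl14 nearest.

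**Figure D4:**
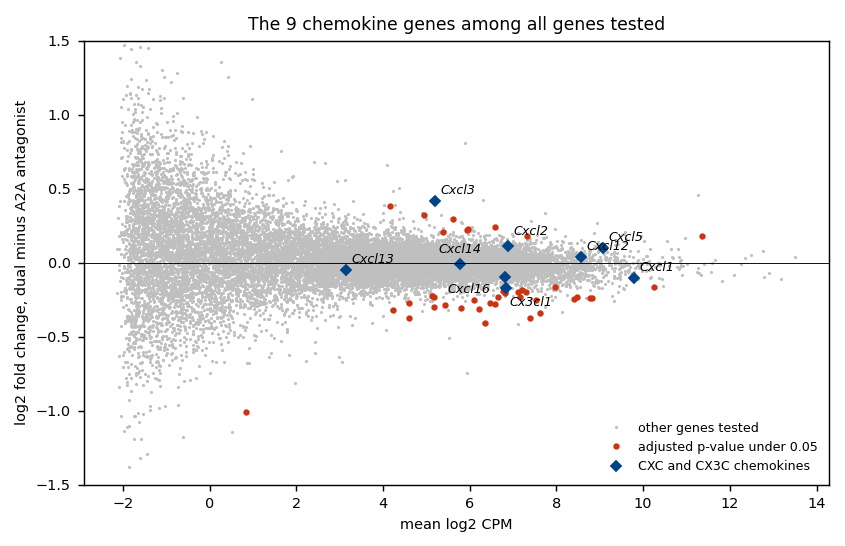
Log2 fold change (dual minus A2A antagonist) against mean log2 CPM for the 18756 genes tested, with the 39 called genes in red and the 9 chemokine genes as blue diamonds; 5 genes lie outside the vertical axis of ±1.5. Cxcl3 stands above 0 (0.42), Cx3cl1 below it (-0.17), and no chemokine gene is among those called.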

How the data were processed

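Gene counts of 8 libraries (4 A2A antagonist, 4 dual) were used as the authors deposited them: raw counts per gene, with no pooling. According to the methods the authors aligned the reads with HISAT2 to an Ensembl mouse genome, and the submitters' processing notes name mm10 and featureCounts 1.5.0-p3. The strand setting is not given in the sources used here. The authors' normalised values, FPKM, fold changes and p-values, present in the deposited tables, were not used, nor were 9 columns of 3 control libraries, which belong to no sample of this series. The methods describe striatal cultures from pups of 4 pregnant animals.

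For the tests, edgeR 4.0.16 was run in R 4.3.3 on the counts (TMM, filterByExpr with a minimum count of 10, quasi-likelihood F test, Benjamini-Hochberg adjustment over all genes tested, threshold 0.05). The script was tested on simulated data. Alternatives were no filter, median-of-ratios scaling, DESeq2 1.42.0, the replicate number as a block and leaving out each library. The 9 genes and the gene lists were chosen with earlier results of these data known. Genes named beside the 9 are those called in each list, the highest per length and the one with the widest difference that passed the filter, and for Cxcl1 and each chemokine gene with an unadjusted p-value under 0.05 the 3 genes with the most similar log2 CPM (those for Cxcl1 are not reported here). Other genes (C1qa, Aif1, Csf1r, S100a8, Retnlg, Tnfaip3, Tnf, Cxcr1, Cxcr4, Ackr3, Pf4, Cxcl11, Adam10, Adam17) were named after their values were seen. Gene coordinates are those of the deposited table and equal GENCODE M21.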

Additional observations from a re-analysis of the deposited data

Results flagged for a closer look

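Cxcl12 in the dual group had 1 library apart from the others. Dual replicate 2 was measured at 364 CPM, whereas the other 3 dual libraries lay between 389.6 and 394 CPM, so that the gap took 0.848 of the range of the group. Of 18 groups of libraries examined, 9 genes in 2 treatments, this was the only such case, and chance gives about 1 in 20. The value lay just under the lowest A2A antagonist library (367 CPM), and without it the log2 fold change of Cxcl12 was 0.06 in place of 0.03.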

How the results depend on the processing

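The 0 of 9 chemokine genes called in edgeR (5 at an unadjusted p-value under 0.05) became 2 without the low-count filter, which were Cxcl3 (0.41, adjusted p = 0.000602) and Cx3cl1 (-0.18, adjusted p = 0.0131), and 1 with DESeq2, which was Cx3cl1 (-0.17, adjusted p = 0.0298). It was 0 whenever a single library was left out, with 2 to 5 genes at an unadjusted p-value under 0.05. Median-of-ratios scaling changed no call, as it moved the median of all genes by -0.00042. Over all genes, 39 of 18756 were called, 366 of 31406 without the filter and 381 of 11313 with DESeq2 (107 higher). When a library was left out, 0 to 172 were called. The 0 came without A2A antagonist replicate 4 or dual replicate 3 (1802 and 2092 at an unadjusted p-value under 0.05). Signs turned for Cxcl13 without A2A antagonist replicate 3 (0.043) or dual replicate 1 (0.022), with a range of -0.12 to 0.043 over such omissions, for Cxcl14 without A2A antagonist replicate 2 (0.0100) or dual replicate 3 (0.00037), with a range of -0.040 to 0.0100, and for Cx3cr1 without dual replicate 4, with a range of -0.031 to 0.089. The median of the 9 ran from -0.040 to 0.043. The cause of these changes was not tested.

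With the replicate number as a block, 1 of the 9 genes was called, Cxcl3 at 0.40 (adjusted p = 0.0189), and 17 genes in all. The numbers did not pair the libraries, as the deviations of same-numbered libraries from their group means correlated at -0.20 to -0.05, and no library correlated best with its own number.

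With 4 libraries a group, an exact permutation test cannot go below 0.0286.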
